A study of Mus musculus with 6 samples.

Results

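The SOX and RUNX transcription factors of the skeleton were followed here as 10 genes of the 17854 in the deposited table, picked by gene symbol: Sox4, Sox5, Sox6, Sox8, Sox9, Sox11, Runx1, Runx2, Runx3 and Cbfb. The bulk RNA-seq compared mouse Tomato+ cells of 2 origins with 3 libraries each. The Inject Prrx group held Tomato+ cells recovered from the repaired knee cartilage of male C57BL/6 mice, in which osteoarthritis had been produced by cutting the anterior cruciate ligament and which had then received Prrx1-lineage mesenchymal stromal cells (MSCs) sorted from the inguinal white fat of Prrx1-Cre; R26 tdTomato donors. The Native Prrx group held the Tomato+ cells that joint cartilage of age-matched males with the same Prrx1-Cre and R26 tdTomato alleles contains by itself, on the same background, called endogenous cells here. By the paper's description, the Tomato+ cells sorted in both groups carried the Cre and the reporter. In the Inject Prrx group these came with the donor cells, and the hosts were normal C57BL/6 mice. The alleles mark all descendants of cells that once expressed Prrx1, in limb and joint mesenchyme as well as fat, and not chondrocytes alone. Whether every profiled cell carried them was not tested. Cell origin, host, surgery and injection all differed between the groups, so that their effects on any gene cannot be told apart. Each group drew on 3 mice and gave 3 libraries, and how the mice were divided over the libraries is not given in the sources used here. Inject Prrx libraries are called MSC-derived here because the paper describes their cells so, and the name is not a result of these data.

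SOX proteins bind DNA through an HMG box. SOX9 is required to form cartilage and acts with SOX5 and SOX6 on the genes of the cartilage matrix, while SOX4 and SOX11 act in mesenchymal progenitors. RUNX proteins bind DNA as partners of the non-binding subunit CBFβ: RUNX2 is the master factor of osteoblasts and of hypertrophic chondrocytes, RUNX1 is needed to form blood and is also present in superficial cartilage and in skeletal progenitors, and RUNX3 acts in T cells and, beside RUNX2, in maturing chondrocytes.

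Library totals ran from 22060628 to 24881796 expected counts, so 3 counts, the level taken as the floor, corresponded to a CPM (counts scaled to library size) of 0.117 to 0.133. One library stood apart: endogenous replicate 1 listed 3459 genes at 0 against 1338 and 1395 in the other endogenous libraries, and the biological coefficient of variation was 35.3% in the endogenous group against 6.77% in the MSC-derived group. All libraries were labelled chondrocyte. The 8 chondrocyte markers were present in both groups but were all lower in the MSC-derived libraries, where they summed to 1946 to 2007 FPKM (a level scaled to library size and gene length) against 14385 to 14745 in the endogenous ones. Their median log2 fold change was -5.93, while that of Prg4, the smallest in size, was -0.51. Most of the MSC-derived sum was Prg4. The SOX9 target list below, which holds every other of these markers but Sox9, summed to 579 to 595 FPKM there. The 6 osteoblast markers were also all lower, at 457 to 477 against 26888 to 39381 FPKM. In the other direction, 12 of 12 leukocyte, 10 of 10 macrophage, 10 of 10 neutrophil, 8 of 8 erythroid, 5 of 7 T and NK cell, 3 of 5 B cell and 4 of 6 endothelial markers tested were higher in the MSC-derived libraries. The neutrophil markers summed to 120355 to 128070 FPKM there and to 4084 to 6606 in the endogenous libraries, the erythroid markers to 32185 to 33240 against 4792 to 7062, and the leukocyte markers to 11894 to 12329 against 275 to 451. The FPKM of all genes summed to 808701 to 813572 in MSC-derived and 504768 to 573603 in endogenous libraries. None of these markers was at 0 in all libraries of either group. A value given below for MSC-derived cells is that of all RNA in those libraries, the blood and endothelial markers included. The part of these markers' cells in the results below was not tested.

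Of the 10 genes, 9 were lower in MSC-derived than in endogenous libraries and none was higher. The decreases ran from 68.4-fold for Sox8 and 34.4-fold for Sox9 to 1.51-fold for Cbfb, and Sox11 did not pass the test. Calls were made with edgeR's quasi-likelihood test at a Benjamini-Hochberg adjusted p of 0.05 over 14289 genes, and a negative log2 fold change is lower in MSC-derived cells. Over all genes tested, 31.3% were called higher and 30.3% lower, and the CPM of the groups did not overlap for 72.4%, against 9 of the 10 here. The median log2 fold change of the 10 genes was -2.08, and that of all genes was 0.05, with the middle 50% between -0.93 and 0.85. In bulk libraries, fewer cells that express a gene and less of its RNA per cell cannot be told apart. Without endogenous replicate 1, all 10 genes were called lower. That fit made more calls over all genes, 5563 higher and 5686 lower of 14728 tested, against 4468 and 4333 of 14289 with all libraries. Calls made below without this library are to be read against those totals.

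**Figure D1:**
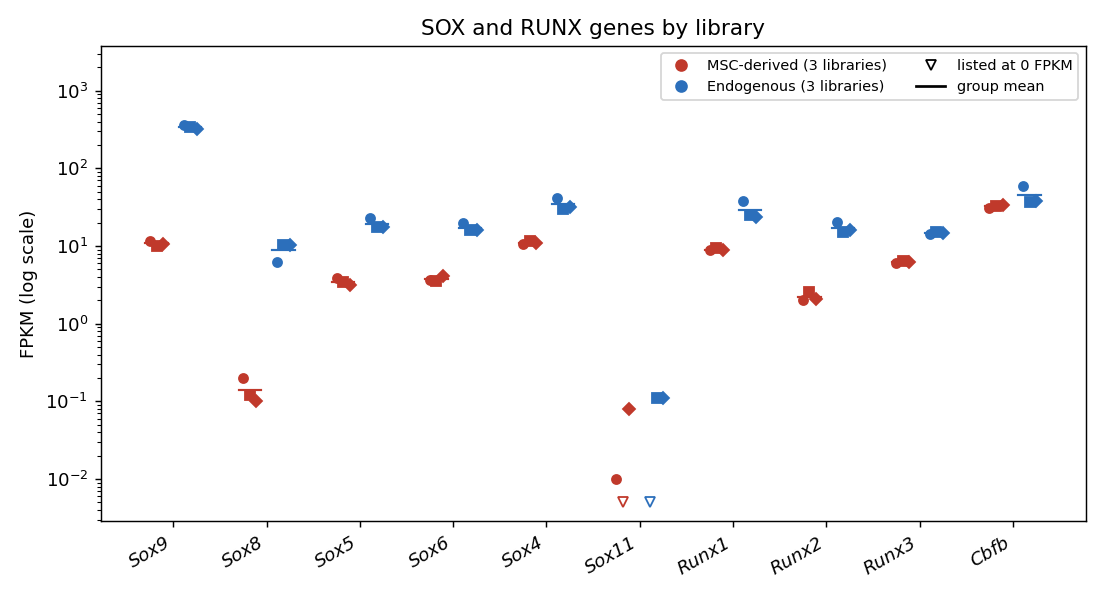
FPKM on a log scale for the 10 genes in each of the 6 libraries (circle, square and diamond for replicates 1, 2 and 3; lines are group means, left out for Sox11; open triangles mark a gene listed at 0). The endogenous libraries lie above the MSC-derived ones for every gene but Sox11, from a wide gap for Sox9 and Sox8 to a narrow one for Cbfb.

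Sox9, the gene of the SOXE group that starts and maintains the chondrocyte fate, was at 11.57, 10.10 and 10.79 FPKM in the MSC-derived libraries and at 359.46, 343.00 and 325.54 FPKM in the endogenous ones. Every endogenous library was far above every MSC-derived one, and within each group the libraries lay close together. The means were 10.8 ± 0.735 and 342.7 ± 17.0 FPKM (SD, n = 3 each). On the log2 scale the difference was -5.10 with a standard error of 0.09 (edgeR's quasi-likelihood test, Benjamini-Hochberg adjusted p = 3.39e-08). Sox9 was not absent from the MSC-derived libraries: 934 to 1125 expected counts were assigned to it, far over the floor of 3.

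Sox8 belongs to the same SOXE group and can stand in for Sox9 in part of its roles in development. It was at 0.20, 0.12 and 0.10 FPKM in MSC-derived cells, from 14, 8 and 6 expected counts. In endogenous cells it was at 6.20, 10.34 and 10.45 FPKM. The groups did not overlap, and endogenous replicate 1, the library that stood apart, was the lowest of its group. The log2 fold change was -6.10 ± 0.37 (standard error, edgeR's quasi-likelihood test, adjusted p = 5.24e-06), and it was -6.36 without that library. Sox10, the remaining SOXE gene, which is known from neural crest and glia, was too low to test, with 0, 2 and 0 expected counts in MSC-derived and 0, 20 and 18 in endogenous libraries. Without endogenous replicate 1 it passed the filter and was called lower (log2 fold change -4.71, edgeR adjusted p = 0.000136).

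Sox5 and Sox6 encode the SOXD partners that help SOX9 on cartilage enhancers and have no activation domain of their own. Sox5 was at 3.85, 3.42 and 3.13 FPKM in MSC-derived libraries and at 22.72, 17.44 and 17.51 FPKM in endogenous libraries. Sox6 was at 3.61, 3.60 and 4.07 FPKM and at 19.80, 15.88 and 16.19 FPKM in the same order. Both genes were lower in every MSC-derived library, and for both the highest value of all was in endogenous replicate 1. The log2 fold changes were -2.54 ± 0.12 for Sox5 and -2.29 ± 0.12 for Sox6 (edgeR's quasi-likelihood test, adjusted p = 1.67e-06 and 3.25e-06). Sox13, the third SOXD gene, did not pass the test (log2 fold change -0.68 ± 0.57, adjusted p = 0.332). Its endogenous libraries ran from 0.44 to 2.13 FPKM, on either side of the MSC-derived range of 0.89 to 1.16, and the lowest was replicate 1. Without that library Sox13 was called lower (log2 fold change -1.17, edgeR adjusted p = 0.000124).

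The SOXC genes Sox4, Sox11 and Sox12 act in undifferentiated mesenchyme and in the survival of skeletal progenitors. Sox4 was at 10.53, 11.56 and 11.09 FPKM in MSC-derived and at 41.06, 30.19 and 32.03 FPKM in endogenous libraries. The groups did not overlap, with a log2 fold change of -1.75 ± 0.13 (edgeR's quasi-likelihood test, adjusted p = 1.39e-05). Sox11 was low in every library, with 3, 0 and 15 expected counts in MSC-derived and 0, 21 and 23 in endogenous cells. Its groups overlapped, since the endogenous library at 0 was replicate 1, and it did not pass the test (log2 fold change -1.29 ± 1.47, edgeR adjusted p = 0.474). Without that library the log2 fold change was -1.95 and the adjusted p was 0.0278, so that 1 library decided this call. Sox12 was lower in MSC-derived cells (log2 fold change -1.63 ± 0.51, edgeR adjusted p = 0.0253), with 29, 23 and 39 against 43, 121 and 107 expected counts. Its lowest endogenous value was again in replicate 1 and lay just above the highest MSC-derived one. The call of Sox12 held in 13 of 18 alternative analyses, and it was lost with the replicate block and without any 1 of MSC-derived replicates 1 and 2 and endogenous replicates 2 and 3, with an adjusted p of up to 0.0977. Without endogenous replicate 1 it held (log2 fold change -2.02, adjusted p = 9.43e-06).

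The SOXF genes Sox7, Sox17 and Sox18 are known from vascular endothelium. With all libraries, none passed the test. Sox17 had 54, 73 and 64 expected counts in MSC-derived and 36, 10 and 2 in endogenous libraries, with a log2 fold change of 1.90 ± 0.87 (edgeR adjusted p = 0.0943). Sox18 had 72, 82 and 55 against 27, 29 and 44 expected counts, with a log2 fold change of 0.99 ± 0.39 (edgeR adjusted p = 0.0601). In both genes every MSC-derived library was above every endogenous one. Without endogenous replicate 1 both were called higher, Sox17 with a log2 fold change of 3.26 and Sox18 with 0.82 (edgeR adjusted p = 1.79e-05 and 0.0387), and over all 18 alternatives Sox17 passed in 4 and Sox18 in 6. Sox7 had 113, 71 and 60 against 0, 73 and 73 expected counts and the groups overlapped (adjusted p = 0.626). The 6 endothelial markers summed to 22.3 to 25.4 FPKM in MSC-derived and 4.93 to 8.86 FPKM in endogenous libraries, and Tek and Emcn among them did not pass the test. Their part in the values of the SOXF genes was not tested. Of the 13 SOX genes listed beside the members, 9 were in the table and 5 of these passed the filter on low counts. Beside Sox10, the genes Sox3, Sox15 and Sox30 did not pass it, each of these 3 with at most 10 expected counts in any library, and Sox1, Sox2, Sox14 and Sox21 were not analysed here. Of the 5 tested, 1 was lower and none higher with all libraries, and 3 were lower and 2 higher without endogenous replicate 1, when Sox10 could be tested too.

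**Figure D2:**
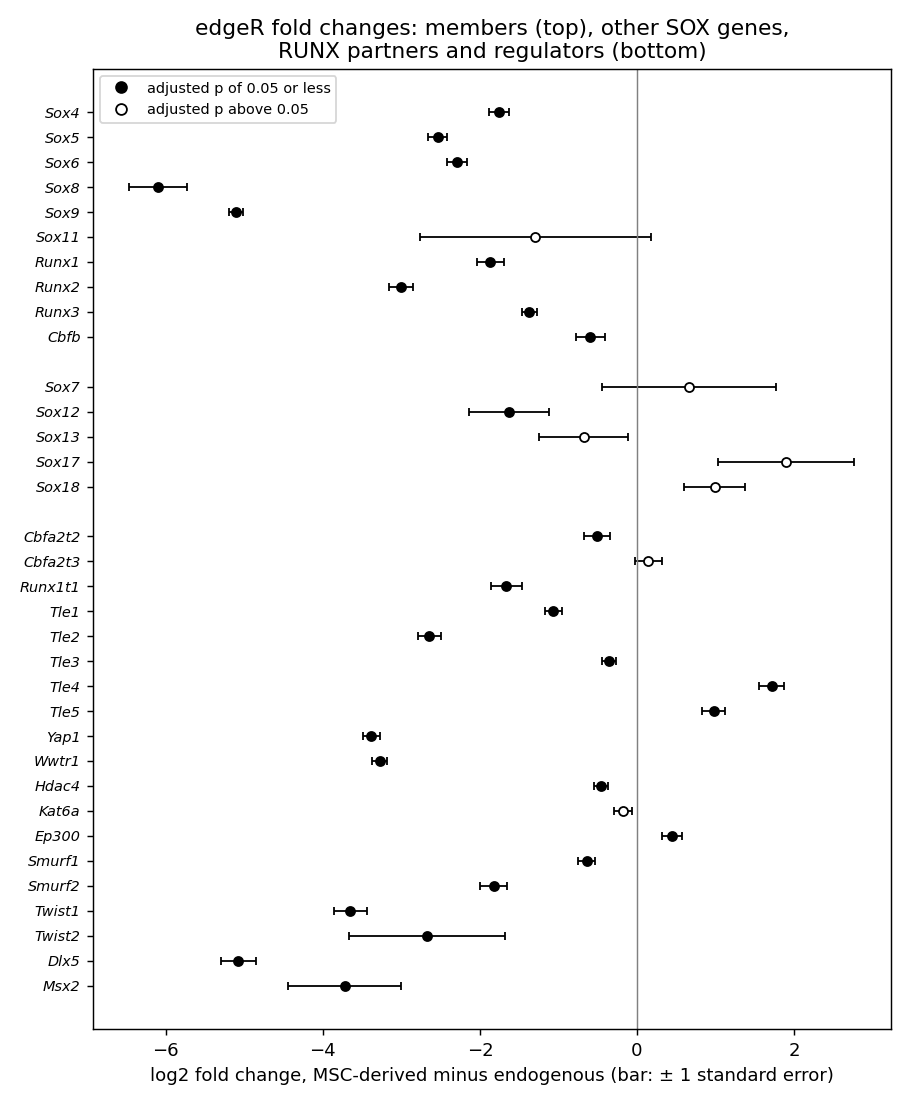
Log2 fold change of MSC-derived minus endogenous libraries with ± 1 standard error for the 10 members, the 5 other SOX genes that could be tested and 19 RUNX partners and regulators (filled points passed edgeR's test at an adjusted p of 0.05, open points did not). All members lie left of 0, with Sox8 and Sox9 farthest, and the bar of Sox11 crosses 0.

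The makeup of the SOX family was then compared within each library, where scaling between libraries plays no part. The 6 SOX members summed to 29.3 ± 0.485 FPKM in MSC-derived and 422.7 ± 24.2 FPKM in endogenous cells (SD, n = 3 each). Sox9 made up 38.9, 35.1 and 36.9% of that sum in the MSC-derived libraries and 80.02, 82.3 and 81.0% in the endogenous ones. The share of Sox4 was 37.8 ± 2.39% in MSC-derived and 8.12 ± 0.958% in endogenous cells, close to that of Sox9 in the former. Sox5 made up 11.8 ± 1.12% of the sum in MSC-derived and 4.53 ± 0.463% in endogenous cells, and Sox6 12.8 ± 0.941% and 4.08 ± 0.303%, although the level of each was lower in the former. The share of Sox8 was 0.477 ± 0.173% and 2.15 ± 0.673%. The groups did not overlap for any of these 5 shares, which are parts of 1 sum and follow from the levels given above. The exact permutation test, two-sided, gave p = 0.1 for each, the smallest value that 3 libraries against 3 can give, and 0.123 after Benjamini-Hochberg adjustment over the 16 shares and ratios tested. For each FPKM unit of Sox5 and Sox6 together there were 9.47 ± 0.935 of Sox9 in endogenous and 1.496 ± 0.0561 in MSC-derived cells (exact permutation p = 0.1, n = 3 each). The ratio of Sox5 to Sox6 itself was 1.11 ± 0.0343 and 0.929 ± 0.150 (exact permutation p = 0.1). Sox9 exceeded Sox8 by 40.8 ± 14.9 times in endogenous and 83.3 ± 25.04 times in MSC-derived cells, and these overlapped (exact permutation p = 0.2).

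**Figure D3:**
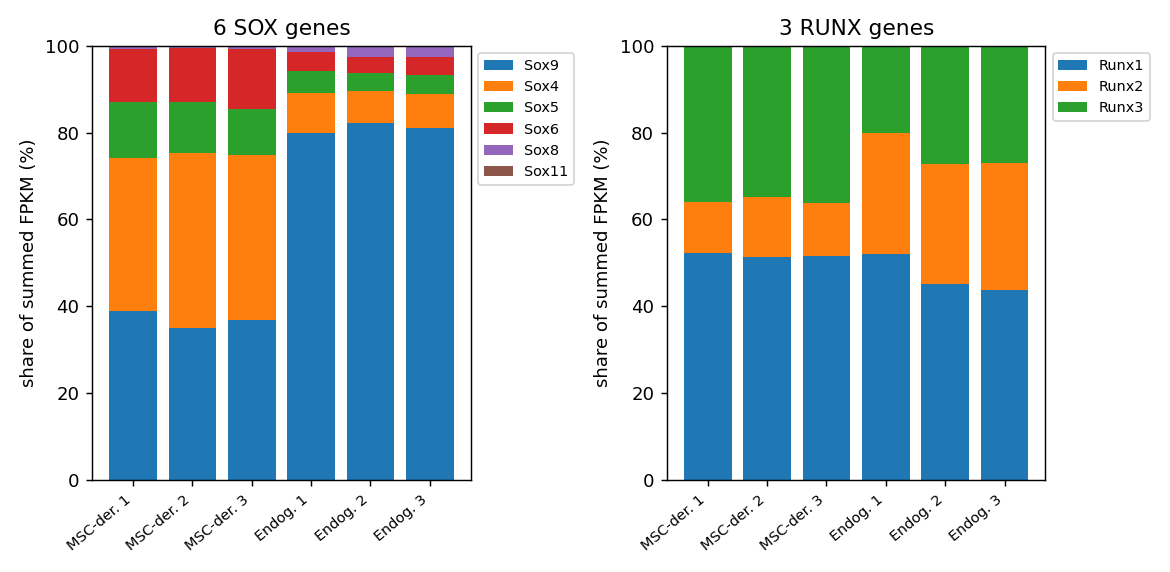
Share of each gene, in percent, in the summed FPKM of the 6 SOX members (left) and of the 3 RUNX genes (right) in each library, without error bars since each bar is 1 library. Sox9 takes 80.02 to 82.3% of the SOX sum in endogenous and 35.1 to 38.9% in MSC-derived libraries, and the Runx2 band is wider in every endogenous library.

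The genes that SOX9 is known to drive in cartilage were read from a list of 20. All 20 were tested and all 20 were lower in MSC-derived cells, with a median log2 fold change of -5.70. The largest decreases were those of Cnmd, the matrix glycoprotein chondromodulin, at -8.45 ± 0.17, and of Col9a1, a chain of the collagen on the surface of cartilage fibrils, at -8.25 ± 0.12 (edgeR's quasi-likelihood test, adjusted p = 5.87e-08 and 2.61e-08). Cnmd was at 4.15, 3.17 and 2.81 FPKM in MSC-derived and at 981.60, 1103.61 and 1168.30 FPKM in endogenous libraries. Matn4, a matrilin chosen after its values were seen as the smallest decrease of the list, changed by -1.08 ± 0.17 on the log2 scale (edgeR adjusted p = 0.00115). Col2a1, the main cartilage collagen and a direct SOX9 target, was also chosen after its values were seen. For each FPKM unit of Sox9 there were 8.27, 9.48 and 9.49 of Col2a1 in MSC-derived and 19.7, 20.8 and 21.8 in endogenous cells. The groups did not overlap in this ratio (exact permutation p = 0.1, n = 3 each). Of the 5336 genes that averaged a log2 CPM of 5 or more, those whose centred log2 CPM over the 6 libraries lay closest to Sox9 were Crispld1 (Euclidean distance 0.125), Cxcl12 (0.138) and Ibsp (0.276), with log2 fold changes of -5.09, -5.12 and -5.13.

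Among the RUNX genes, Runx2 was at 2.02, 2.55 and 2.07 FPKM in MSC-derived and at 20.14, 15.19 and 15.95 FPKM in endogenous libraries. Every endogenous library was above every MSC-derived one, with replicate 1 the highest. The log2 fold change of Runx2, -3.00 ± 0.15, was the largest in size of the 3 RUNX genes (edgeR's quasi-likelihood test, adjusted p = 2.09e-06). Runx1 was at 8.87, 9.40 and 8.80 FPKM in MSC-derived and at 37.55, 24.87 and 23.89 FPKM in endogenous libraries. The groups did not overlap, and endogenous replicate 1 was 1.53 times the mean CPM of the other endogenous libraries. The log2 fold change was -1.87 ± 0.18 with all libraries (edgeR adjusted p = 6.13e-05) and -1.69 without replicate 1. Runx3 was at 6.11, 6.40 and 6.19 FPKM in MSC-derived and at 14.39, 14.97 and 14.66 FPKM in endogenous libraries. It was the steadiest of the RUNX genes within groups, with a log2 fold change of -1.37 ± 0.10 (edgeR adjusted p = 1.21e-05).

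The RUNX genes hold RUNX motifs in their own first promoters, and a link of these sites to the levels of the 3 genes was not tested. The windows are from RefSeq (build GRCm38.p6), printed 5′ to 3′ on the strand of the gene, and capitals mark the RUNX motif ACCACA, the reverse complement of TGTGGT.
Runx1: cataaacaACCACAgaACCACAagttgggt
Runx2: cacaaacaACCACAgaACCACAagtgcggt
Runx3: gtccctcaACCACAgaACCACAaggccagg
The first lies at chr16:92826025-92826054 on the minus strand, starting 20 bases after the transcript start, the next at chr17:44814583-44814612 on the minus strand, starting 15 bases after it, and the last at chr4:135120503-135120532 on the plus strand, starting 142 bases before it. Each holds a pair of motifs whose first bases are 8 bases apart. Such a pair on 1 strand, looked for after these windows had been seen, occurred in 7 of the 32851 promoter windows of RefSeq (0.0213%, 250 bases before to 50 after a start), of which 3 were these. The second promoters of Runx1 and Runx3 in the table held no RUNX motif. On either strand, at least 1 RUNX motif was found in 5 of 16 promoters of the 9 members that could be matched (31.2%, Sox9 not among them) and in 16.8% of all promoters. A SOX motif (AACAAT or its reverse complement ATTGTT) was found in 1 of the 16 and in 10.7% of all. These matches describe letters in a window, and no binding was measured here.

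**Figure D4:**
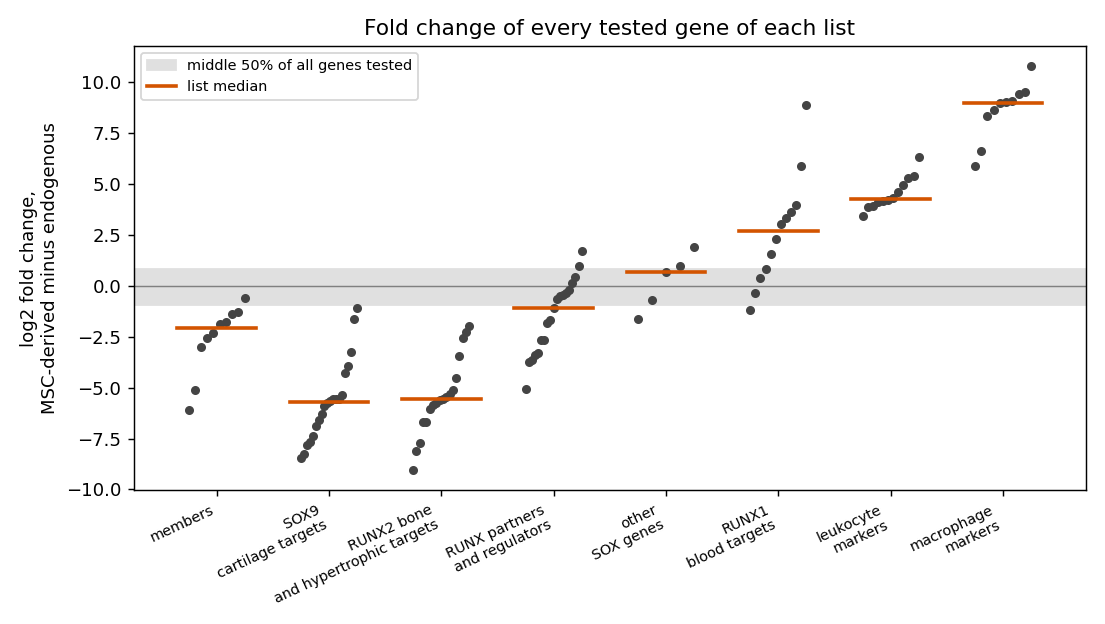
Log2 fold change of every tested gene in 8 gene lists, each point 1 gene in order of size, with the list median as an orange line and the middle 50% of all 14289 genes tested in grey. The SOX9 and RUNX2 target lists lie below the grey band with medians of -5.70 and -5.57, whereas the RUNX1 blood targets have a median of 2.68.

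Cbfb, which encodes the shared CBFβ subunit, changed least of the genes called. It was at 30.63, 33.29 and 33.68 FPKM in MSC-derived and at 60.22, 37.08 and 38.49 FPKM in endogenous libraries. The groups did not overlap, but endogenous replicate 1 was 1.58 times the mean CPM of the other endogenous libraries. The log2 fold change was -0.59 ± 0.18 (edgeR's quasi-likelihood test, adjusted p = 0.0250). It was -0.39 without replicate 1 (adjusted p = 4.96e-06), and the call was lost in 7 of 18 alternative analyses, with an adjusted p of up to 0.102. Relative to the summed RUNX genes, Cbfb was 1.86 ± 0.0962 in MSC-derived and 0.739 ± 0.0855 in endogenous cells, without overlap (exact permutation p = 0.1, n = 3 each).

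Within the RUNX sum, which was 17.5 ± 0.763 FPKM in MSC-derived cells and between 54.50 and 72.08 FPKM in endogenous libraries, the share of Runx2 was 12.6 ± 1.10% and 28.3 ± 0.879%, and that of Runx3 was 35.7 ± 0.733% and 24.7 ± 4.09% (exact permutation p = 0.1 for each, n = 3 each). The share of Runx1 was 52.2, 51.2 and 51.6% in MSC-derived and 52.1, 45.2 and 43.8% in endogenous libraries. Replicate 1 of the endogenous group fell inside the MSC-derived range, and the difference in means was 4.62 percentage points (exact permutation p = 0.3, where 0.1 is the smallest possible). It was 7.15 without that library and 3.02 without endogenous replicate 3. Runx1 exceeded Runx2 by 4.11 ± 0.373 times in MSC-derived and 1.67 ± 0.185 times in endogenous cells (exact permutation p = 0.1).

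RUNX2 is known to act on genes of osteoblasts and of hypertrophic cartilage. Of 19 such genes, 18 could be tested and 17 were lower in MSC-derived cells, with a median log2 fold change of -5.57. All 6 osteoblast markers given above are among the 19, so their decrease is not a separate result. Ihh, the signal of prehypertrophic chondrocytes, had 1, 0 and 3 expected counts in MSC-derived and 583, 775 and 860 in endogenous libraries, so that its MSC-derived values were at or under the floor. Dmp1, a matrix protein of osteocytes, was at 0.48, 0.37 and 0.32 FPKM in MSC-derived and 90.40, 108.99 and 97.62 FPKM in endogenous libraries, a log2 fold change of -8.11 ± 0.17 (edgeR adjusted p = 6.15e-08). The osteocyte genes Mepe and Sost were not called with all libraries. Mepe had 20, 9 and 6 against 0, 80 and 81 expected counts (adjusted p = 0.171), and Sost, with 2, 0 and 3 against 0, 109 and 81, did not pass the filter. In both, endogenous replicate 1 was at 0 while the other endogenous libraries were high, and without it both were called lower (log2 fold changes -2.90 and -5.85, edgeR adjusted p = 4.61e-06 and 1.18e-08). The osteocalcin genes Bglap and Bglap2 were lower too, but they are near-identical copies between which the authors' counting could divide reads. The known RUNX site of the osteocalcin promoter is given for comparison with the RUNX promoters, with the motif in capitals (RefSeq, build GRCm38.p6, chr3:88384576-88384615, minus strand, starting 149 bases before the transcript start).
Bglap: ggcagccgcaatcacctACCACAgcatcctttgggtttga
At least 1 RUNX motif was found in 5 of 18 promoters of this list (27.8%), which covered 14 of its 19 genes. The SOX9 target list had 4 of 19 promoters (21.1%), covering 15 of 20 genes. The RUNX1 blood targets described next had 0 of 9, covering only 8 of 12 genes, with Cd4 and Csf1r not among them. The RUNX partners and regulators had 0 of 18, covering 15 of 19 genes. Promoters of the unmatched genes were not searched. Genes closest to Runx2 in pattern were Auts2, Dipk2a and Sqle, at distances of 0.110, 0.186 and 0.225 and with log2 fold changes of -3.03, -2.92 and -2.92.

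Genes that RUNX1 acts on in blood were read from a list of 13, and unlike Runx1 most were higher in MSC-derived cells. The list does not separate genes that RUNX1 raises from genes that it lowers. Of 12 tested, 9 were higher in MSC-derived cells and none was lower, with a median log2 fold change of 2.68. Cd4, the T cell coreceptor, was at 56.89, 58.59 and 62.00 FPKM in MSC-derived and at 0.05, 0.07 and 0.24 FPKM in endogenous libraries, a log2 fold change of 8.88 ± 0.36. The T and NK cell markers together summed to only 13.5 to 15.3 FPKM in MSC-derived libraries, below Cd4 alone, and which cells held the Cd4 RNA was not tested. Csf1r, the receptor that macrophages need for survival, was at 203.70, 199.07 and 200.89 FPKM and at 3.52, 2.67 and 3.24 FPKM, a log2 fold change of 5.88 ± 0.12. Both passed edgeR's quasi-likelihood test (adjusted p = 7.41e-07 and 5.66e-08). Itga2b, an integrin chain of platelets, and Csf2, a myeloid growth factor, did not pass it (log2 fold changes -0.35 and -1.20, adjusted p = 0.233 and 0.183). Csf2 was called lower without endogenous replicate 1 (log2 fold change -1.50, edgeR adjusted p = 0.0318). Il3 was not analysed here. The 10 macrophage markers, Csf1r among them, summed to 11743 to 11993 FPKM in MSC-derived and 22.8 to 37.4 FPKM in endogenous libraries, and the part of those cells in the RUNX1 list was not tested.

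Set against Ptprc, the pan-leukocyte gene CD45, Runx1 was at 0.120, 0.120 and 0.116 FPKM for each FPKM unit of Ptprc in MSC-derived libraries. In endogenous libraries it was at 7.05, 8.49 and 7.35. Runx1 exceeded Ptprc in every endogenous library and was below it in every MSC-derived one. Since Runx1 was lower and Ptprc higher in MSC-derived libraries without overlap, this ratio had to separate the groups. Its exact permutation p of 0.1 (n = 3 each) therefore adds no support. The genes whose pattern lay closest to Runx1 were Hk2, Sh3d19 and Hif1a, at distances of 0.130, 0.137 and 0.140 and with log2 fold changes of -1.82, -1.93 and -1.79.

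**Figure D5:**
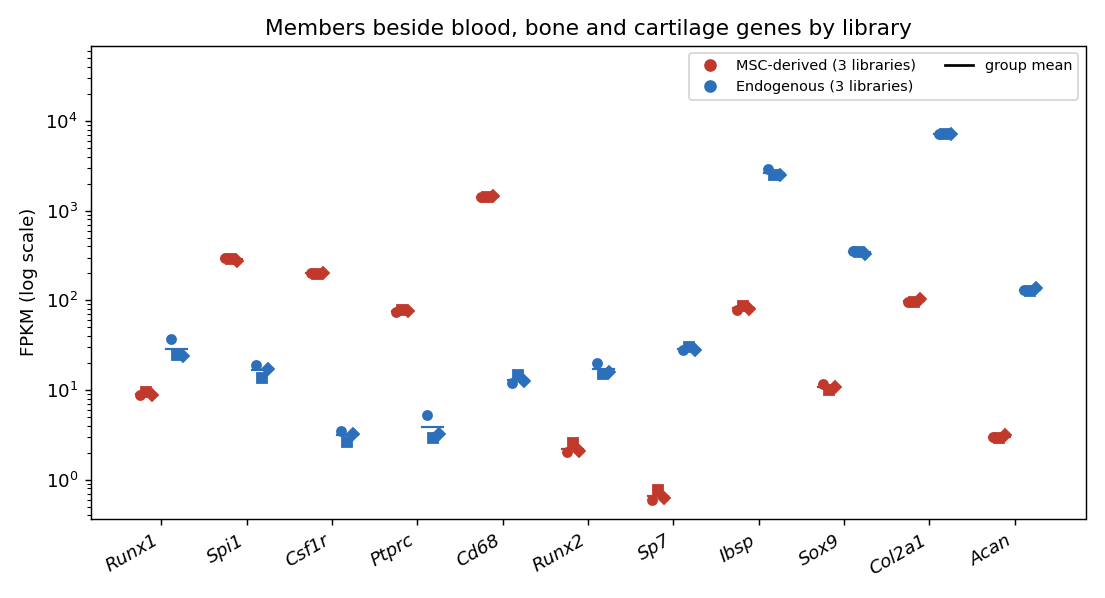
FPKM on a log scale in each library (circle, square and diamond for replicates 1, 2 and 3, lines for group means) for Runx1 beside 4 blood cell genes, Runx2 beside 2 bone genes and Sox9 beside 2 cartilage genes, the latter chosen after their values were seen. Runx1 is higher in endogenous cells while Spi1, Csf1r, Ptprc and Cd68 are higher in MSC-derived cells, and Runx2 and Sox9 lie on the same side as the bone and cartilage genes.

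Genes whose proteins work with RUNX factors or control them were mostly lower in MSC-derived cells, and some were higher. Of 19 tested, 14 were lower and 3 higher in MSC-derived cells, with a median log2 fold change of -1.07. The largest decreases were those of the homeobox genes Dlx5, which acts upstream of Runx2 in bone, at -5.08 ± 0.22, and Msx2, at -3.72 ± 0.72 (edgeR's quasi-likelihood test, adjusted p = 1.02e-06 and 0.00295). Dlx5 was at 1.40, 0.98 and 0.81 FPKM in MSC-derived and at 30.28, 34.84 and 35.61 FPKM in endogenous libraries. The 3 genes that were higher were the Groucho family genes Tle4 (log2 fold change 1.72 ± 0.16) and Tle5 (0.98 ± 0.14), of which TLE4 is a corepressor that RUNX proteins recruit, and the acetyltransferase gene Ep300 (0.44 ± 0.13), with edgeR adjusted p-values of 5.29e-05, 0.000757 and 0.0184. The call of Ep300 held in 13 of 18 alternative analyses. It was lost without each MSC-derived library in turn, without endogenous replicate 2 and with limma on TPM, where the log2 fold change was 0.0070 (adjusted p = 0.973). Tle4 was at 10.98, 9.13 and 10.48 FPKM in MSC-derived and 2.33, 2.90 and 3.30 FPKM in endogenous libraries, without overlap. Cbfa2t3 and Kat6a did not pass the test (log2 fold changes 0.14 and -0.18, adjusted p = 0.499 and 0.201).

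The order of the members by FPKM also differed between the groups. In endogenous cells Sox9 stood highest, above Cbfb, Sox4 and Runx1, whose libraries overlapped each other from 1 gene to the next. Sox5, Sox6 and Runx2 followed with overlapping ranges between 15.19 and 22.72 FPKM, then Runx3, Sox8 and last Sox11. In MSC-derived cells Cbfb stood highest, at 30.63 to 33.68 FPKM. Sox4 and Sox9 came next and overlapped each other, then Runx1 at 8.80 to 9.40 FPKM and Runx3 at 6.11 to 6.40 FPKM, each apart from its neighbours. Sox6 and Sox5 overlapped, Runx2 lay under them, and Sox8 and Sox11 were lowest, at 0.20 FPKM or less. Runx2 was thus above Runx3 in every endogenous library and below it in every MSC-derived one.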

How the data were processed

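Sorted Tomato+ cells were profiled by bulk RNA-seq on TruSeq RNA libraries, 3 per group, grouped by the labels. The authors deposited expected counts, FPKM and TPM for each library and gene. The submitters' processing notes name mm9, Bowtie2 2.2.5 and RSEM 1.2.12; the study's methods name other versions, and which were used could not be settled. Strandedness of counting is not given in the sources used here, so reads of Sox4, Sox5, Sox8, Runx1 and Runx2 cannot be told apart from those of antisense genes that overlap their exons. Normalized columns were used only for levels and limma alternatives, and all 18 columns were mapped to samples.

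Expected counts were rounded (20.6% of values changed) and fitted with edgeR 4.0.16 in R 4.3.3 (TMM, filterByExpr, quasi-likelihood F test), leaving 14289 genes. Errors of log2 fold changes are standard errors derived from F, other errors are SD. How mice were divided over libraries is not given in the sources used here, so p-values measure only the spread between libraries, which may be technical, and depth covers counting error only. Shares and ratios of FPKM were compared by exact permutation. They are computed from the levels of the same genes, so they are not independent of the fold changes or of each other. DESeq2 1.42.0, limma 3.58.1 on log2(FPKM + 1), log2(FPKM + 0.1) and log2(TPM + 1), other scalings and filters, a replicate block and leaving out each library were alternatives. On simulated counts for 14289 genes with 200 changed, the fit recovered 49.5% of 2-fold and 79% of 4-fold changes, with 3.76% false calls; a first limit of 80% for the latter was not met and the fit was then judged on false calls and signs. Members, lists (SOX genes, targets, partners, cell markers) and tests were chosen with earlier results of these data known. Each list names its 2 largest called changes in each direction, up to 4 called genes against its majority and up to 4 genes without a call. The values of 1 gene of the RUNX1 list are not reported here.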

Additional observations from a re-analysis of the deposited data

How the results depend on the processing

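No member changed direction in any alternative, and Sox4, Sox5, Sox6, Sox8, Sox9, Runx1, Runx2 and Runx3 kept their call in 18 of 18. The size for Sox8, which had few MSC-derived counts, was less stable. Its log2 fold change ran from -6.45 to -3.10, against -5.44 to -4.86 for Sox9. With limma on log2(FPKM + 1) the values were -3.10 and -4.86, and on log2(TPM + 1) -3.85 and -5.44, so there Sox9 and not Sox8 had the larger decrease. Members called lower numbered 8 to 10 when 1 library was left out. The call of Cbfb was lost with library size only (adjusted p = 0.0583), in the 3 limma fits on FPKM and without each MSC-derived library in turn, and it changed by -0.74 to -0.39 on the log2 scale over the 6 libraries left out. The median of all genes was 0.05, and 0.16 with library size only. Limma on TPM, which changes the model and the unit together, gave -0.28 and called 3124 genes higher and 5962 lower against 4468 and 4333, and limma on log2(FPKM + 1) gave 0.13 with 5464 and 3955. Other SOX genes called higher numbered 1 with library size only and with DESeq2, 2 in each of the limma fits on FPKM, and 0 to 2 with 1 library left out. Those called lower numbered 0 with the replicate block and at an adjusted p of 0.001, and 0 to 3 with 1 library left out, Sox12 being the gene that lost its call. RUNX1 blood targets called lower numbered 2 with limma on TPM and 0 to 1 with 1 library left out, and RUNX partners called lower numbered 8 at 0.001. RUNX partners called higher numbered 2 or 3 throughout, Ep300 being the gene that lost its call. The cause was not tested. The difference in the share of Runx1 was 17.98 percentage points over Runx1 and Runx2 alone, and that of Sox9 was -46.1 from expected counts and -49.3 over all 15 SOX genes, against -44.2. Libraries share only a number (correlations of same-numbered deviations 0.0022 to 0.0178, with 3 MSC-derived and 2 endogenous libraries closest to their own number), and with the replicate block 9 members were called lower, with 4103 genes higher and 3920 lower in all. Depth left Sox11 and the untested SOX genes near the floor.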
